A study of Mus musculus with 11 samples.

Results

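Ciliated airway cells were examined in whole-lung single-cell RNA libraries from old mice of 4 p21 genotypes. A barcode was taken as a ciliated cell when it held 1000 to 30000 UMIs (unique molecular identifiers, 1 per captured RNA molecule) with at most 14% of them mitochondrial, at least 5 UMIs of Foxj1, Ccdc153 and Tmem212 together, and at most 1 UMI of the leukocyte gene Ptprc. This gave 1524 ciliated cells among 69267 passing barcodes (2.20%), out of 81983 barcodes in 11 libraries. Per the labels, lungs were dissociated enzymatically, freed of red cells and loaded on a droplet 3′ RNA platform as total cells. The groups were WT (wild type, +/+; 1 library), p21Het (p21 heterozygotes, +/-; 3 libraries), p21mTert (+/mTert; 5 libraries) and p21mTertCD (+/mTertCD; 2 libraries). All groups but WT thus carried 1 normal and 1 altered allele of p21, the gene Cdkn1a, and mTert stands for the mouse telomerase reverse transcriptase, Tert. The label CD is not spelled out, and neither strain, sex nor the number of animals per library is given. Mice were 18 months old, except 19 months for p21Het_1 and 20 months for p21mTert_1 (libraries are named by group and replicate). The libraries reached the archive in 2 deposits, WT_1, p21Het_1 and p21mTert_1 first and the remaining 8 later. Nothing in the labels ties libraries to separate animals, so each p-value below measures only the spread between libraries.

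Ciliated cells line the conducting airways between secretory club cells and carry many motile cilia, whose beating moves mucus and particles out of the lung. Each cilium is built on a ring of doublet microtubules around a central pair; outer and inner dynein arms drive the beat, and radial spokes and a regulatory complex control it. Proteins reach the cilium by intraflagellar transport, and the differentiation of these cells runs through regulators such as Foxj1 and the Rfx factors.

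Libraries held 42038434 to 85988955 UMIs, and the ciliated cells 1061621 to 3099636 of them per library, 21207188 in all. WT_1 gave 129 ciliated cells, the p21Het libraries 128, 185 and 83, those of p21mTert 86, 226, 206, 192 and 103, and those of p21mTertCD 115 and 71. The median ciliated cell held 14066 UMIs (interquartile range 10161.5 to 18243) and 4319 genes. Between 4 and 20 barcodes were shared by any of the 55 pairs of libraries, at most 0.322% of the smaller library.

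The cells were chosen by their UMIs of the 3 rule genes, so the levels of these genes are a description. A median of 69 rule-gene UMIs was found per cell (5 to 188), and 1439 cells (94.4%) held all 3 genes. Few barcodes lay near the limit of 5: among passing barcodes with at most 1 Ptprc UMI, 28 held 4 rule-gene UMIs and 35 held 3, against 18 with 5 and 25 with 6. The 106 cells with 5 to 9 rule-gene UMIs were shallow, with a median of 1633 UMIs, but ciliary genes took 2.50% of their UMIs at the median, beside 3.22% in the 1249 cells with 30 or more. The many other ciliary genes described below were also present in these cells, as their label requires.

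Markers of other lung cells were present at unequal levels. The defining genes Krt5 and Krt14 of basal cells and Trpm5 of tuft cells were at 0 UMIs in the ciliated cells of every library, which allows up to 0.141 CPM (counts per 1000000 UMIs) over all of them. Calca, Dclk1 and Trp63 of the same marker list held 0 to 6 UMIs per library. Club and goblet markers summed to 23286 CPM in WT_1 and 3380 to 8341 CPM elsewhere, of which Scgb1a1 made up 1254 to 20631 CPM; in B cell-like barcodes Scgb1a1 reached 528 to 2895 CPM. Alveolar type 2 markers summed to 4642 CPM in p21mTert_1 and 432 to 1983 CPM in the other libraries. Globin genes of red cells summed to 38.4, 2345 and 9324 CPM in p21Het, 72.7 to 545 CPM in p21mTert and 285 and 37.7 CPM in p21mTertCD. Where these markers bear on a gene below, their part in the result was not tested.

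The genes of the ciliary machinery stood far above their level in other lung cells. The comparison of ciliated cells with all other passing barcodes is given without a test, because the rule chose the cells by their RNA. Of 6724 genes at 20 CPM or more in ciliated cells, 642 (9.55%) were at least 16-fold above the other barcodes, on mean CPM over 11 libraries with 1 CPM added. Over all members of each list, it held for 10 of 11 outer-arm and docking genes and for 18 of 18 inner-arm and regulatory-complex genes. It also held for 16 of 18 radial-spoke and central-pair genes, 18 of 22 doublet and tubulin genes, 8 of 11 dynein assembly factors, 21 of 35 genes of intraflagellar transport and the BBSome, and 4 of 15 multiciliation regulators, 1 of which is the rule gene Foxj1. The structural and transport members under 20 CPM were Nme8 and Pih1d3 at 0, Tubb2b (1.00 CPM, 0.210-fold), Ttc21b (10.7 CPM, 1.86-fold), Efhc2, Dnaaf2 and Rsph3a. Transport and BBSome genes are known to serve the single primary cilium of many other cells as well.

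Among members of the structural and transport lists at 20 CPM or more, this fold ranged from 2.49 for Bbip1 to 187 for Rsph1. Bbip1 is a small BBSome subunit. The regulators E2f4 and Tfdp1 were lower still, at 1.04-fold and 1.55-fold. The added 1 CPM holds down the fold of genes at low levels, so part of this spread follows the level of the gene. Cfap221, at 33.9 CPM against 0.114 CPM, came to 31.3-fold. The other barcodes also include 95 with at least 5 rule-gene UMIs but more than 1 Ptprc UMI, whose part in the folds was not tested. Dnah5, an outer-arm dynein heavy chain, averaged 606 CPM over the libraries (496 to 706), 173-fold above other barcodes, and Dnah9, its distal partner, averaged 306 CPM (146-fold). Ccdc39, which sets the spacing of inner arms and the regulatory complex, averaged 558 CPM (162-fold). Rsph1, a radial-spoke head protein, averaged 852 CPM (187-fold), and Hydin, a central-pair protein, 449 CPM (172-fold). Tekt1, a filament protein inside the doublets, averaged 311 CPM (142-fold), whereas the tubulins Tuba1a and Tubb4b, used by many cells, were abundant but only 17.7-fold and 17.0-fold higher. Ift88, a core subunit of the transport trains, averaged 290 CPM (47.7-fold). UMIs were counted at 3′ ends, and levels of different genes were not tested against each other.

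**Figure D1:**
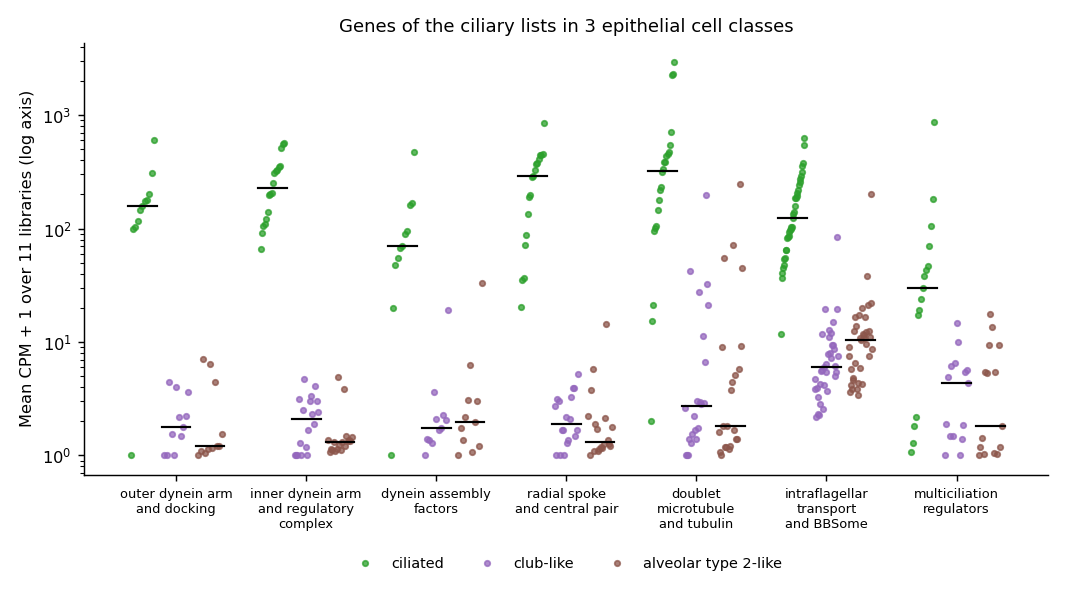
Mean CPM + 1 over 11 libraries (log axis) of each gene of 7 ciliary lists in ciliated cells, club-like cells and alveolar type 2-like cells; each point is 1 gene and the black line is the median of its list. Nearly all structural genes lie well above the other 2 epithelial classes in ciliated cells, whereas transport genes and regulators come closer to them.

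Of 15 multiciliation regulators, 11 were present in every library, and Mcidas, Gmnc, Cdc20b and Foxn4 were at 0 UMIs in at least 1 library. Foxj1, the master regulator of motile ciliogenesis and a gene of the rule, averaged 876 CPM, and Rfx3 and Rfx2, transcription factors of ciliary genes, averaged 105 and 46.2 CPM. Myb averaged 182 CPM (19.3-fold) and Trp73, which acts upstream of Foxj1, 69.4 CPM (50.8-fold). Mcidas and Gmnc, which start the programme in precursors, were near the detection limit at 0.281 and 0.807 CPM, and Cdc20b stood at 0.0600 CPM. Deup1, the organiser of deuterosomes that multiply centrioles, kept 42.3 CPM (34.4-fold). After each cell was thinned to 2000 UMIs, which left out 98 shallower cells, 5.00% to 12.6% of ciliated cells per library held a Deup1 UMI, against 0% to 0.25% of B cell-like cells; median depths before thinning were 12968 to 16088 and 3522 to 9339 UMIs. For the proliferation gene Mki67 the thinned shares were 0% to 3.75% in ciliated and 0% to 3.87% in B cell-like cells, and ciliated cells held the higher share in p21Het_1, p21mTert_1 and p21mTert_5. B cells can divide themselves and are no background for this gene, so nothing is read from these shares.

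Some promoters of ciliary genes carried X-box-like letters, which Rfx factors are known to bind. RefSeq promoters (GRCm38.p6; 250 bases before to 50 after the start) were matched for 90 of the 115 structural and transport genes in 6 lists. Of 10 motifs searched on both strands, the single site GTTGCC was in 40 of the 90 (44.4%), in 175 of 484 genes at least 16-fold higher in ciliated cells (36.2%) and in 14.1% of all 27025 genes. The paired form, GTNNCC, 3 bases of any kind and then GNNAC, can overlap GTTGCC and was in 26 of 90 (28.9%), in 108 of 484 (22.3%) and in 5.26% of all genes. Forkhead letters TGTTTAC were in 2 of 90 (2.22%) and in 4.05% of all genes. A match is a description of letters, not a site of binding. The 4 windows below are shown because they belong to genes whose values are given here, and the motif lies just before the start in each. Promoters without the paired motif before the start give no window, so only matches are shown. They come from chr1:172521103-172521129 (Cfap45, + strand, 5′ UTR exon in GENCODE), chr8:110266948-110266976 (Hydin, + strand, exon of Gm26832), chr11:72361883-72361905 (Tekt1, - strand, in the gene, outside exons) and chr7:45924192-45924214 (Ccdc114, + strand, UTR exon). Capitals mark the paired motif, which in Cfap45 and Hydin reads as defined on the strand opposite to the one printed.
Cfap45: gttcttggGTTGCTATGGTAACgcgtc
Hydin: actctgcgGTTGCTGTGGCAACagatggt
Tekt1: tccgtccgGTTGCCATAGAGACc
Ccdc114: ggccccttGTCTCCCCAGTAACc
The motif starts 19 bases before the annotated start in Cfap45, 21 in Hydin, 15 in Tekt1 and 15 in Ccdc114. Among the genes of the rule, Ccdc153 held the single site GTTGCC and Tmem212 neither form.

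The variation among ciliated cells is described by the ciliary share of their UMIs and by single genes. The 115 genes of the 6 structural and transport lists took a median of 3.16% of a cell's UMIs, with an interquartile range of 2.84% to 3.47% and a full range of 0.261% to 5.51%. Per library the median was 3.34% in WT_1, 3.33%, 2.76% and 3.10% in p21Het, 3.13% to 3.42% in p21mTert, and 2.98% and 3.01% in p21mTertCD, against 0.0399% to 0.0796% in club-like cells. Over 3614 genes the median Fano factor (variance over mean of thinned UMIs) was 1.02, close to counting noise. The non-coding transcripts Gm42418 and Malat1 had 60.1 and 14.4, the calcium-binding protein S100a6 13.1, and the mitochondrially encoded mt-Atp6 and mt-Co1 6.31 and 5.44. Scgb1a1, the club cell secretoglobin, had 70.6 (3.17 to 606 over libraries). The antimicrobial lectin Reg3g had 6.56 (1.00 to 70.6) and Cd74, the chaperone of MHC class II, 5.08 (0.989 to 10.5), so in some libraries neither exceeded counting noise at this depth. Cd74 was in 2.13% to 27.4% of thinned ciliated cells and in 98.5% to 100% of B cell-like cells, which express it. The immediate early genes Fos, Jun and Atf3, which respond to stimulation and to tissue handling, had 6.48, 5.17 and 5.47. Scgb1a1 was also in 67.7% to 98.8% of thinned B cell-like cells, beside 64.1% to 94.7% of ciliated cells, so its share is at the background. Cyp2f2, a cytochrome P450 of club cells, differed from it: 86.6% to 96.3% of thinned ciliated cells held a UMI, against 2.58% to 10.3% of B cell-like cells, and its level was 1882 to 3156 CPM in ciliated cells.

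The share of ciliated cells among all passing barcodes ranged from 1.27% to 3.26% over the libraries, and no difference between groups passed the test. It was 2.36% in WT_1 (exact 95% interval 1.97% to 2.80%, which covers counting error only). It was 2.06%, 2.17% and 1.42% in p21Het (mean 1.88% ± 0.408, SD, n = 3). In p21mTert it was 1.38%, 3.00%, 3.26%, 3.07% and 2.18% (2.58% ± 0.787, SD, n = 5), and in p21mTertCD 1.75% and 1.27% (1.51% ± 0.343, SD, n = 2). The 4 p21mTert libraries of the later deposit exceeded all p21Het and p21mTertCD libraries, and p21mTert_1 of the first deposit lay below p21Het_1. The difference p21mTert minus p21Het was 0.698 percentage points (2-sided exact permutation p = 0.232, adjusted p = 0.696 over 6 share tests). Against p21mTertCD it was 1.07 points (exact permutation p = 0.190, adjusted p = 0.696). In the later deposit alone the means were 2.88% in p21mTert and 1.79% in p21Het, and the exact permutation p of 0.0667 is the lowest possible for 4 against 2 libraries. In the first deposit, 1 library against 1, p21mTert was 0.676 points lower.

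Among airway cells (ciliated plus club-like) the ciliated share overlapped between all groups. It was 84.3% in WT_1, and p21Het had 87.7%, 72.3% and 79.8%. The p21mTert libraries had 69.9%, 85.3%, 85.5%, 81.0% and 80.5%, and those of p21mTertCD 76.2% and 79.8%. Group means were 79.9% ± 7.70 (SD, n = 3), 80.4% ± 6.32 (SD, n = 5) and 78.0% ± 2.56 (SD, n = 2). The difference p21mTert minus p21Het was 0.517 points (exact permutation p = 0.929, adjusted p = 0.929). It changed sign without p21Het_2 (-3.31), p21mTert_2 (-0.70) or p21mTert_3 (-0.74). In the later deposit alone it was 7.02 points, and the exact permutation p of 0.0667 is the lowest possible for 4 against 2 libraries. In the first deposit, 1 library against 1, it was -17.8 points. The difference p21mTertCD minus p21Het cannot reach 0.05 with 2 against 3 libraries, whose smallest p is 0.1; it was -0.370 points of passing barcodes and -1.95 points of airway cells, and the second turned to 1.93 without p21Het_1, which is also the later deposit alone. Dissociation and capture also set such shares, and their part was not tested.

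**Figure D2:**
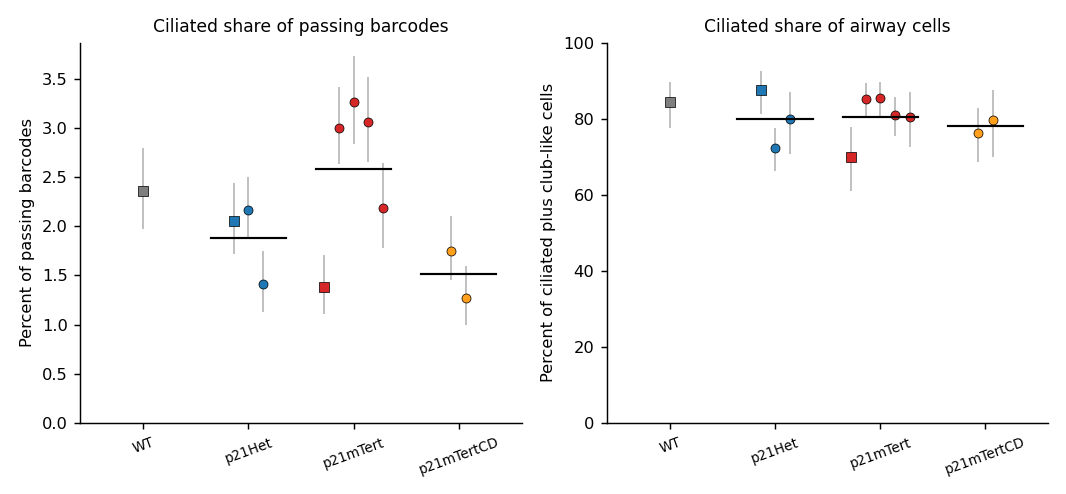
Ciliated cells as a percent of passing barcodes (left) and of ciliated plus club-like cells (right) by group; squares are libraries of the first deposit, circles of the later one, grey bars exact 95% intervals for counting error, black lines group means. On the left 4 of 5 p21mTert libraries lie at 2.18% or above and p21mTert_1 at 1.38%, while on the right all groups overlap.

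Cdkn1a, the cyclin-dependent kinase inhibitor p21 whose locus carries the altered allele, was present in the ciliated cells of every library. Its level was 215.9 CPM in WT_1. It was 176.0, 212.7 and 187.2 CPM in p21Het. In p21mTert it was 154.6, 140.0, 135.5, 148.5 and 102.2 CPM, and in p21mTertCD 154.1 and 128.1 CPM. All 5 p21mTert and both p21mTertCD libraries lay below the lowest p21Het library. Of all tested genes, 2.17% were likewise lower and 2.26% higher without overlap in p21mTert than in p21Het. In p21mTertCD against p21Het, 9.84% were lower and 6.02% higher without overlap, so that part of the pattern was common. The p21mTert minus p21Het difference was -0.50 on the log2(CPM + 1) scale (exact permutation p = 0.0179, the smallest for 5 against 3, adjusted p = 0.107 over 6 tests), so it did not pass the adjustment. The quasi-likelihood test of edgeR, which sums UMIs per library and uses all genes, gave a log2 fold change of -0.52 ± 0.15 (SE) and a Benjamini-Hochberg adjusted p of 0.343. Here and below, the SE of an edgeR value is the absolute log2 fold change divided by the square root of the test statistic F. It is not a separate estimate of error. The difference was -0.61 in the later deposit and -0.19 in the first. Cdkn1a averaged 168, 143 and 146 CPM over all other barcodes of p21Het, p21mTert and p21mTertCD. Counts cannot tell transcripts of the normal allele from any of the altered one.

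Tert, the catalytic subunit of telomerase, gave only 35 UMIs in all ciliated cells. WT_1 had 0, p21Het 0, 0 and 2, p21mTert 3, 5, 13, 7 and 2, and p21mTertCD 0 and 3. All 5 p21mTert libraries held at least 2 UMIs (1.32 to 4.66 CPM), while 2 of 3 p21Het libraries and 1 of 2 p21mTertCD libraries held none, which allows up to 1.86, 1.19 and 1.85 CPM. The p21mTert minus p21Het difference was 1.26 on the log2(CPM + 1) scale (exact permutation p = 0.0536, adjusted p = 0.161). Tert fell under the edgeR filter on low counts. Its mean in all other barcodes was 0.731, 2.58 and 2.28 CPM in p21Het, p21mTert and p21mTertCD. In ciliated cells the place of p21mTertCD rests on single libraries: p21mTertCD minus p21Het was 0.49, but -0.48 without p21mTertCD_2, and p21mTert minus p21mTertCD was 0.77, but -0.20 without p21mTertCD_1.

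Between p21mTert and p21Het ciliated cells 8 genes were called, a number that depended on the tool and filter. Of 10587 genes tested with edgeR, 6 rose (0.0567%) and 2 fell (0.0189%) at a Benjamini-Hochberg adjusted p under 0.05. The 6 that rose were Wdfy1, Efcab7, Cryaa, Cd59a, Uhrf1bp1 and Klf2, and the 2 that fell were Lrmda and Jchain. The first 5 and Lrmda changed by more than 2-fold, while Klf2, by far the most abundant, changed by 0.53 on the log2 scale. Without the filter on low counts 217 genes were called, and DESeq2 called 17. Without 1 library the number of called genes was 4 to 21, with 21 without p21Het_1 and 4 without p21mTert_2, _3, _4 or _5. In the later deposit alone Efcab7, Cryaa, Klf2 and Jchain had edgeR adjusted p-values of 0.0692 to 0.0762, at log2 fold changes of 1.32, 1.42, 0.52 and -4.51.

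Wdfy1, an endosomal adaptor of Toll-like receptor signalling, stood at 36.1 CPM in WT_1, 42.1, 29.7 and 38.6 CPM in p21Het, 127, 110, 127, 123 and 150 CPM in p21mTert, and 76.4 and 36.7 CPM in p21mTertCD. Every p21mTert library exceeded all others. The log2 fold change over p21Het was 1.80 ± 0.19 (SE; edgeR adjusted p = 0.00172). It remained past the threshold without any 1 library, but not in the 276 cells with under 10 club, 5 alveolar and 2 endothelial UMIs (1.2, edgeR adjusted p = 0.547), of which the 27 of WT_1 and the 8 of p21mTert_1 did not enter the fit. That limit kept mostly shallow cells, such as 19 cells with 44655 UMIs in all in p21Het_3, and fewer genes could be tested in them. In alveolar type 2-like cells the means were 34.6 CPM in p21Het and 79.2 CPM in p21mTert, which was not tested.

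Cd59a, a membrane inhibitor of the complement attack complex, had 24.3 CPM in WT_1, 32.2, 29.7 and 26.6 CPM in p21Het, 70.4, 61.3, 72.1, 72.7 and 63.3 CPM in p21mTert, and 19.7 and 33.9 CPM in p21mTertCD. The p21mTert libraries stood apart from every other library. Cd59a was the only gene that rose in p21mTert against both p21Het (1.18 ± 0.14, SE; edgeR adjusted p = 0.0031) and p21mTertCD (1.34 ± 0.18, SE; edgeR adjusted p = 0.0123), 2 comparisons that share the p21mTert libraries. The second call was lost without p21mTertCD_1 (1.01, edgeR adjusted p = 0.221). In alveolar type 2-like cells the means were 8.75, 30.0 and 3.24 CPM in p21Het, p21mTert and p21mTertCD, the same order of p21mTert above the others.

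Lrmda, a leucine-rich repeat gene known from melanocyte differentiation, fell. It had 27.2 CPM in WT_1, 37.2, 22.5 and 26.6 CPM in p21Het, 5.15, 5.48, 5.02, 5.41 and 6.60 CPM in p21mTert, and 28.4 and 8.48 CPM in p21mTertCD. The 5 p21mTert values were close together and below all others, and the 2 p21mTertCD libraries were far from each other. The log2 fold change over p21Het was -2.36 ± 0.30 (SE; edgeR adjusted p = 0.00465). In all other barcodes the means were 5.92 CPM in p21Het, 0.669 CPM in p21mTert and 4.03 CPM in p21mTertCD.

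Efcab7, an EF-hand protein of the ciliary zone that serves Hedgehog signalling, had 10.1 CPM in WT_1, 11.8, 14.2 and 6.87 CPM in p21Het, 38.6, 28.4, 29.8, 34.8 and 27.7 CPM in p21mTert, and 17.3 and 12.2 CPM in p21mTertCD. The p21mTert libraries again stood above all others (1.41 ± 0.22, SE; edgeR adjusted p = 0.0253). The log2 fold change was 1.23 to 1.77 without any 1 library, but the edgeR adjusted p was under 0.05 in 4 of those 10 fits (those without p21Het_2, p21mTert_1 or either p21mTertCD library) and reached 0.109 without p21mTert_4. Levels of Efcab7 in other barcodes were low, 0.592 CPM in p21Het and 2.01 CPM in p21mTert.

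Uhrf1bp1 and Cryaa, the αA-crystallin chaperone best known from the lens, shared another order of groups: p21Het was low, and p21mTert, p21mTertCD and WT_1 were high. Uhrf1bp1 had 53.2 CPM in WT_1, 33.5, 27.3 and 21.5 CPM in p21Het, 61.0, 58.7, 61.3, 54.8 and 83.8 CPM in p21mTert, and 63.5 and 65.0 CPM in p21mTertCD. Its log2 fold change over p21Het was 1.17 ± 0.16 (SE; edgeR adjusted p = 0.00723) in p21mTert and 1.25 ± 0.20 (SE; edgeR adjusted p = 0.0729) in p21mTertCD. Cryaa had 23.7 CPM in WT_1, 7.12 to 12.4 CPM in p21Het, 20.6 to 30.1 CPM in p21mTert, and 17.9 and 28.3 CPM in p21mTertCD (p21mTert over p21Het 1.32 ± 0.22, SE; edgeR adjusted p = 0.0371). Without p21Het_2 the Cryaa value was 1.12 (edgeR adjusted p = 0.332), and it passed in 3 of 10 fits without 1 library (p21Het_1 or either p21mTertCD library). Both genes lie on the chromosome of Cdkn1a (GRCm38 chr17:29090976-29100727), Uhrf1bp1 at chr17:27856441-27900041 and Cryaa at chr17:31677807-31681733, 1.19 and 2.58 Mb away. Of 172 tested genes within 5 Mb of Cdkn1a, 20 (11.6%) had an unadjusted edgeR p under 0.05 in this comparison, beside 9.09% of all genes tested. Of the 20, 14 were higher and 6 lower in p21mTert, beside 3.84% and 5.24% of all genes. The 20 include Uhrf1bp1 and Cryaa, for which the window was drawn, and Cdkn1a itself is among the 172, so the counts are a description. For p21mTert minus p21mTertCD it was 15 (8.72%, beside 9.36% of all genes), and for p21mTertCD minus p21Het 10 (5.81%, beside 4.71%).

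Klf2, a transcription factor that responds to flow and is abundant in endothelium and lymphocytes, had 829 CPM in WT_1, 659, 624 and 692 CPM in p21Het, 924, 918, 920, 1048 and 999 CPM in p21mTert, and 661 and 620 CPM in p21mTertCD. The p21mTert libraries lay above all p21Het and p21mTertCD libraries (0.53 ± 0.09 over p21Het, SE; edgeR adjusted p = 0.0464). The size of the difference ranged from 0.48 to 0.57 without any 1 library, but the call was kept in 3 of those 10 fits (without p21mTert_1 or either p21mTertCD library), with an edgeR adjusted p of 0.162 without p21mTert_4. Endothelial markers summed to 6.01 to 66.9 CPM in ciliated cells, and their part in the Klf2 values was not tested.

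Jchain, the joining chain of secreted antibodies made by plasma cells, fell outside the naming rule and is named because it was called. It had 369, 18.6 and 342 CPM in p21Het and 1.98 to 21.5 CPM in p21mTert, so the groups overlapped (-4.68 ± 0.72, SE; edgeR adjusted p = 0.0253). B cell-like barcodes averaged 3600 CPM of it in p21Het, and the part of free RNA was not tested. The call was lost without p21Het_1, p21Het_3, p21mTert_2, _3, _4 or _5, with edgeR adjusted p-values of 0.0562 to 0.128. Rell1 (-1.16, edgeR adjusted p = 0.0663) and Hdac7 (-0.69, edgeR adjusted p = 0.0829) were lower without overlap, as were 2.17% of all tested genes, and did not pass.

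**Figure D3:**
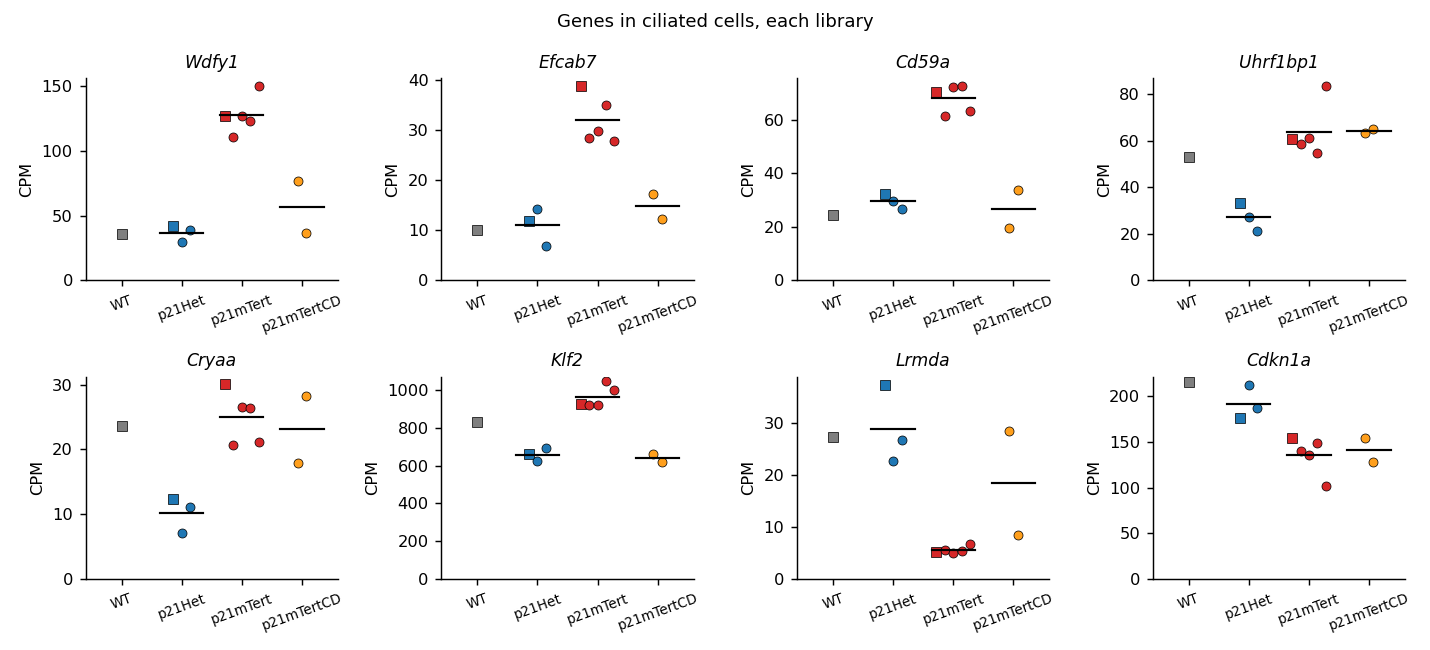
CPM in ciliated cells of each library (squares first deposit, circles later deposit, black lines group means) for the 6 genes that rose and Lrmda that fell in p21mTert against p21Het, and for Cdkn1a. The 5 p21mTert libraries of Wdfy1 lie at 110 to 150 CPM and those of Lrmda at 5.02 to 6.60 CPM, in both cases apart from all other libraries.

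Slamf8 was the only gene that edgeR called in p21mTertCD against both p21mTert and p21Het, comparisons that share the p21mTertCD libraries. DESeq2 called Cfap45 and Cdkn1c in both. Between p21mTert and p21mTertCD, 3 genes were higher in p21mTert (0.0283%; Cdkn1c, Cd59a and Cfap45) and 4 were lower (0.0378%; Slamf8, Ccl5, A2ml1 and Ide) at an edgeR adjusted p under 0.05. Against p21Het, 1 gene rose in p21mTertCD (0.00945%), Slamf8, and none fell (0%): 239 genes (2.26%) were lower there at an unadjusted edgeR p under 0.05, and DESeq2 called 5 genes in either direction. Without 1 library the first comparison gave 2 to 16 called genes, with 16 without p21Het_2 and 2 without p21mTert_3 or p21mTert_5. In the later deposit alone Cdkn1c, Ide and A2ml1 had edgeR adjusted p-values of 0.0507, 0.0829 and 0.0958, at log2 fold changes of 1.10, -1.13 and -1.60. Without the filter on low counts 153 genes were called between p21mTert and p21mTertCD and 38 between p21mTertCD and p21Het. Where 1 of the 2 p21mTertCD libraries was left out, the lone one was assumed to vary like the libraries of the other groups. At an unadjusted p under 0.05, edgeR gave 991 genes (9.36%) between p21mTert and p21mTertCD and 499 (4.71%) between p21mTertCD and p21Het. With 2 p21mTertCD libraries, values without overlap were common: 5.19% of tested genes were lower and 12.1% higher in p21mTert than in p21mTertCD, and 9.84% were lower and 6.02% higher in p21mTertCD than in p21Het.

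Slamf8, a receptor of the SLAM family known from macrophages, was at or near 0 in every library but the 2 of p21mTertCD. Ciliated cells held 0 UMIs of it in WT_1, while the p21Het libraries held 2, 4 and 1 and the p21mTert libraries 0, 2, 3, 4 and 0. The p21mTertCD libraries held 74 and 50. This came to 45.6 and 47.1 CPM in p21mTertCD against at most 1.58 CPM elsewhere. The log2 fold change was -5.85 ± 0.39 (SE) for p21mTert minus p21mTertCD (edgeR adjusted p = 4.45e-06) and 5.11 ± 0.45 (SE) for p21mTertCD minus p21Het (edgeR adjusted p = 0.000176), and both calls held without any 1 library, under that assumption where a p21mTertCD library was left out. With so few Slamf8 UMIs in p21mTert and p21Het, the SE values above, taken from the test statistic, can understate the error. The transcript was spread over many cells: 40.0% and 46.5% of the p21mTertCD ciliated cells held a UMI, against 0% to 2.08% in the other libraries. At 2000 UMIs per cell the shares were 4.85% and 9.09%, and at most 0.549% elsewhere, beside 0% to 0.75% of B cell-like cells.

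Over all other barcodes of the lung, library levels of Slamf8 overlapped between the groups. Their mean was 8.19 CPM in WT_1 and 7.95, 6.20 and 5.92 CPM in p21Het, p21mTert and p21mTertCD. In alveolar type 2-like cells it was 0.292, 0.388 and 1.67 CPM, from 7, 10 and 12 UMIs, and club-like cells of both p21mTertCD libraries held 0 CPM. Leukocyte markers in the ciliated cells of p21mTertCD summed to 295 and 133 CPM, within the 125 to 866 CPM of the other libraries. Slamf8 (GRCm38 chr1:172581758-172590568, - strand) lies 35.888 kb from Cfap45 (chr1:172520801-172545870, + strand), with Vsig8 between them. Vsig8 had 12, 50 and 6 UMIs in p21Het, p21mTert and p21mTertCD and was not tested for its low counts, and Fcrl6, 6.074 kb beyond Slamf8, had 0 in every group. The tested genes on either side, Igsf9, Tagln2 and Dusp23, had log2 fold changes of 0.29, -0.06 and -0.25 for p21mTert minus p21mTertCD (edgeR adjusted p of 0.845 to 0.910). Of 13 tested genes within 0.5 Mb, 2 (15.4%, beside 9.36% of all genes) had an unadjusted edgeR p under 0.05 in that comparison, Slamf8 and Cfap45 themselves. In p21mTertCD minus p21Het it was 3 (23.1%, beside 4.71% of all genes), again with Slamf8 and Cfap45 among them. The window was drawn around Slamf8, so these counts are a description.

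Cfap45, a protein that lines the inside of ciliary doublets, was lower in p21mTertCD than in p21mTert. It had 346 CPM in WT_1, 325, 334 and 352 CPM in p21Het, 305, 373, 416, 431 and 429 CPM in p21mTert, and 206 and 157 CPM in p21mTertCD. Both p21mTertCD libraries lay below every other library. The call was made against p21mTert (1.03 ± 0.17, SE; edgeR adjusted p = 0.0482) but not against p21Het (-0.83 ± 0.18, SE; edgeR adjusted p = 0.654); DESeq2 called both. Without 1 library the edgeR adjusted p was 0.0131 to 0.244 and passed in 3 of 10 fits (without p21Het_1, p21Het_2 or p21mTert_1), with a log2 fold change of 0.81 without p21mTertCD_2. Of the other 20 tested doublet and tubulin genes, none was called in this comparison by edgeR or DESeq2, and 3 had an unadjusted edgeR p under 0.05 (9.36% of all genes).

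Cdkn1c, the imprinted cyclin-dependent kinase inhibitor p57, was expressed by ciliated cells in all groups and lower in p21mTertCD than in p21mTert. It had 403 CPM in WT_1, 297, 222 and 210 CPM in p21Het, 316, 219, 255, 296 and 316 CPM in p21mTert, and 93.7 and 155 CPM in p21mTertCD. Again both p21mTertCD libraries were the lowest of all (p21mTert over p21mTertCD 1.12 ± 0.17, SE; edgeR adjusted p = 0.0329). Against p21Het the value was -0.94 ± 0.18 (SE; edgeR adjusted p = 0.391), which DESeq2 called. The first call was lost without p21mTert_1, _3, _4 or _5 and without p21mTertCD_1, where the value was 0.84 (edgeR adjusted p = 0.299). In all other barcodes Cdkn1c averaged 8.46, 11.2 and 7.51 CPM in the same groups.

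A2ml1, a secreted protease inhibitor, and Ide, the insulin-degrading enzyme, were highest in p21mTertCD. A2ml1 had 122 CPM in WT_1, 240, 346 and 211 CPM in p21Het, 151, 127, 167, 280 and 239 CPM in p21mTert, and 731 and 443 CPM in p21mTertCD (-1.69 ± 0.28, SE; edgeR adjusted p = 0.0422). Ide had 52.6 CPM in WT_1, 72.5, 95.7 and 67.0 CPM in p21Het, 58.1 to 69.9 CPM in p21mTert, and 98.0 and 171 CPM in p21mTertCD (-1.15 ± 0.19, SE; edgeR adjusted p = 0.0422). Each rests on 1 p21mTertCD library to a large part: A2ml1 without p21mTertCD_1 gave -1.2 (edgeR adjusted p = 0.444) and Ide without p21mTertCD_2 gave -0.78 (edgeR adjusted p = 0.251). Both calls were also lost without p21mTert_1, _2, _3 or _5, and that of Ide without p21mTert_4. In the 276 mostly shallow cells described for Wdfy1, of which p21mTertCD_2 gave 11, the Ide value was -0.07 (edgeR adjusted p = 0.99). Outside ciliated cells Ide averaged 20.6, 17.4 and 33.7 CPM in B cell-like cells of p21Het, p21mTert and p21mTertCD, the same order.

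Ccl5, a chemokine made mainly by T and natural killer cells, had 10.7 CPM in WT_1, 4.29 to 8.06 CPM in p21Het, 5.28 to 12.9 CPM in p21mTert, and 20.96 and 46.2 CPM in p21mTertCD (-2.19 ± 0.32, SE; edgeR adjusted p = 0.0295). Without p21mTertCD_2 the value was -1.62 (edgeR adjusted p = 0.239), and the call was also lost without p21mTert_2, _3, _4 or _5. Over all other barcodes its mean was 743, 1386 and 2770 CPM in p21Het, p21mTert and p21mTertCD, beside 6.23, 7.68 and 33.6 CPM in ciliated cells, and the part of free RNA was not tested.

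**Figure D4:**
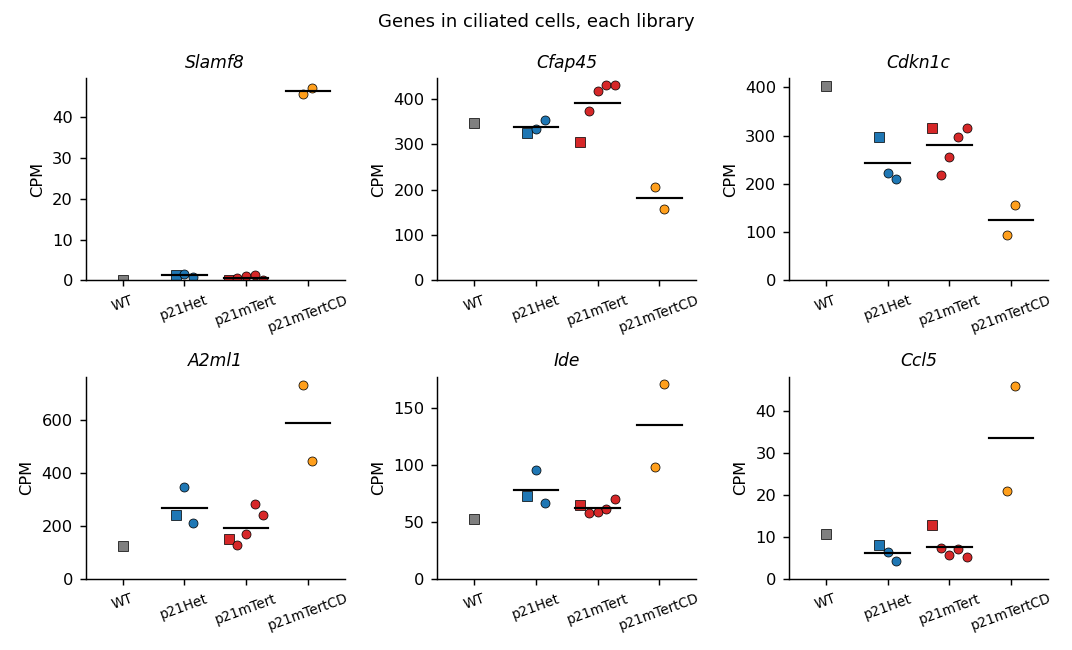
CPM in ciliated cells of each library (squares first deposit, circles later deposit, black lines group means) for 6 of the 7 genes called between p21mTert and p21mTertCD; the other one, Cd59a, is plotted with the p21mTert genes. Slamf8 is at 45.6 and 47.1 CPM in p21mTertCD and at most 1.58 CPM in all other libraries.

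Of the structural and transport genes of the cilium, Cfap45 alone passed the test in any comparison. Of the 115 genes in 6 lists, 112 were tested. For p21mTert minus p21Het edgeR and DESeq2 called none of them; 16 were higher and 0 lower at an unadjusted edgeR p under 0.05, beside 3.84% higher and 5.24% lower of all genes. Of the 112, 88 (78.6%) had a log2 fold change above 0, beside 48.6% of all genes tested, and the values lay between -0.17 and 0.57 with a median of 0.10 (all genes -0.01). The counts differed between the lists: 17 of 18 radial-spoke and central-pair genes, 16 of 18 inner-arm genes, 27 of 35 transport genes, 15 of 21 doublet genes, 7 of 10 outer-arm genes and 6 of 10 assembly factors were above 0. Under 20 other settings the median over the 6 lists was 0.08 to 0.30. The members were chosen as ciliary genes that these cells express, and they are not independent of one another.

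Dnah5, Ccdc114, Dnajb13 and Tekt1 show the size of the values. Dnah5 had 497 CPM in WT_1, 598, 603 and 541 CPM in p21Het, 496, 589, 669, 654 and 706 CPM in p21mTert, and 705 and 613 CPM in p21mTertCD (p21mTert over p21Het 0.09, edgeR adjusted p = 0.892). Ccdc114, of the outer-arm docking complex, had 152, 127 and 133 CPM in p21Het and 162 to 196 CPM in p21mTert (0.33, edgeR adjusted p = 0.396). Its values did not overlap, as in the 2.26% of all tested genes that were higher without overlap. Dnajb13, a radial-spoke cochaperone, had 118 to 126 CPM in p21Het and 136 to 154 CPM in p21mTert (0.24, edgeR adjusted p = 0.492). Tekt1 had 335, 229 and 266 CPM in p21Het and 317 to 356 CPM in p21mTert (0.30, edgeR adjusted p = 0.397), with overlap at p21Het_1. The ciliary share of UMIs given above was lowest in p21Het_2, the library with the most ciliated cells of its group.

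For p21mTert minus p21mTertCD, 73 of 112 (65.2%, beside 49.2% of all genes) were above 0 with a median of 0.04, and Cfap45 was the 1 gene called. At an unadjusted edgeR p under 0.05, 11 were higher and 1 lower, beside 4.23% and 5.13% of all genes. Tekt2, another filament protein of the doublets, had 132 to 179 CPM in p21mTert and 92.5 and 116 CPM in p21mTertCD (0.58, edgeR adjusted p = 0.346). Bbs2, a BBSome subunit, had 12.2 CPM in p21mTertCD_2 and 30.5 to 43.5 CPM in the other 10 libraries (0.68, edgeR adjusted p = 0.428). For p21mTertCD minus p21Het, 69 of 112 (61.6%, beside 49.7%) were above 0 with a median of 0.03; edgeR called none and DESeq2 called Cfap45. At an unadjusted edgeR p under 0.05, 4 were higher and 1 lower, beside 2.46% and 2.26% of all genes.

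None of the tested multiciliation regulators was called by edgeR or DESeq2. Leaving out Foxj1, whose UMIs chose the cells, 5 of 10 were above 0 for p21mTert minus p21Het, 5 for p21mTert minus p21mTertCD and 4 for p21mTertCD minus p21Het, beside 48.6%, 49.2% and 49.7% of all genes. The other 6 in the last comparison were below 0, beside 50.3% of all genes. Plk4, the kinase of centriole duplication, had 34.7, 19.8 and 13.7 CPM in p21Het and 9.03 to 17.2 CPM in p21mTert (-0.82, edgeR adjusted p = 0.39), and was the only one of the 10 with an unadjusted edgeR p under 0.05 against p21Het (9.09% of all genes). As a description, Foxj1 had 884, 834 and 964 CPM in p21Het, 802 to 986 CPM in p21mTert and 835 and 964 CPM in p21mTertCD. Of 12 cell-cycle genes only 1 passed the filter on low counts.

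Antioxidant and detoxification genes, a programme in which airway epithelium is rich, were mostly below 0 in p21mTert. Against p21Het, 22 of 23 were below 0 (51.4% of all genes) with a median of -0.21 (all genes -0.01), 0 were called by edgeR or DESeq2 and 7 were lower at an unadjusted edgeR p under 0.05 (5.24% of all genes). Nqo1, a quinone reductase, had 25.4 CPM in WT_1, 27.3, 68.4 and 67.8 CPM in p21Het, 29.2, 9.03, 12.2, 11.8 and 26.4 CPM in p21mTert, and 5.55 and 83.8 CPM in p21mTertCD (-1.83 ± 0.53, SE; edgeR adjusted p = 0.343). Txnrd1, the thioredoxin reductase, had 389, 498 and 629 CPM in p21Het and 286 to 404 CPM in p21mTert (-0.61, edgeR adjusted p = 0.439). Gclc, of glutathione synthesis, had 366, 454 and 430 CPM in p21Het and 238 to 392 CPM in p21mTert (-0.50, edgeR adjusted p = 0.401). In all 3 genes p21Het_2, p21Het_3 and p21mTertCD_2 were the high libraries, and p21Het_2 and p21Het_3 were also those with 2345 and 9324 CPM of globin (37.7 CPM in p21mTertCD_2), whose part in the values was not tested.

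Immediate early and heat-shock genes were mostly above 0 against p21Het in both p21mTert and p21mTertCD. For p21mTert minus p21Het, 17 of 20 were above 0 (48.6% of all genes) with a median of 0.21. Of these genes 8 were higher at an unadjusted edgeR p under 0.05 (3.84% of all genes), while edgeR called 0 and DESeq2 called Ier2 and Zfp36. Ier2 had 873 CPM in WT_1, 603, 656 and 867 CPM in p21Het, 1038, 1062, 1033, 986 and 990 CPM in p21mTert, and 763 and 998 CPM in p21mTertCD (0.51 ± 0.13, SE; edgeR adjusted p = 0.274). Fos had 1828, 2334 and 2545 CPM in p21Het and 2611 to 3048 CPM in p21mTert (0.36, edgeR adjusted p = 0.449). All 5 p21mTert libraries of both genes lay above the 3 p21Het libraries, as in 2.26% of all genes. The median over the list for p21mTert minus p21Het was 0.07 to 0.42 under the other settings. For p21mTertCD minus p21Het, 13 of 20 were above 0 (49.7% of all genes) with a median of 0.28. At an unadjusted edgeR p under 0.05, 4 were higher and 0 lower there, beside 2.46% and 2.26% of all genes. For p21mTert minus p21mTertCD the median was 0.10, with 1 higher and 2 lower, beside 4.23% and 5.13% of all genes. Such genes also answer to dissociation, and the labels give no handling time, so its part was not tested.

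Interferon, antigen-presentation and secreted defence genes were mostly below 0 for p21mTert in both comparisons, without a call by edgeR. MHC class II genes were below 0 in 6 of 6 tested against both p21Het (median -0.75) and p21mTertCD (-0.85), MHC class I genes in 7 of 8 (-0.27) and 8 of 8 (-0.65), interferon-response genes in 12 of 15 (-0.40) and 14 of 15 (-0.64), and airway defence genes in 10 of 12 (-0.36) and 10 of 12 (-0.75). Of all genes, 51.4% and 50.8% were below 0. Both comparisons share the p21mTert libraries. At an unadjusted edgeR p under 0.05, 2 class II, 2 class I, 6 interferon and 4 defence genes were lower against p21Het, and 2, 5, 4 and 6 against p21mTertCD, beside 5.24% and 5.13% of all genes; DESeq2 called Ifit3 alone, against p21Het.

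Single genes of these groups showed which libraries carried the values. B2m, the light chain of MHC class I, had 99.4 CPM in WT_1, 133, 274 and 101 CPM in p21Het, 106 to 152 CPM in p21mTert, and 325 and 200 CPM in p21mTertCD (p21mTert minus p21mTertCD -1.07, edgeR adjusted p = 0.346). Both p21mTertCD libraries lay above all p21mTert libraries, as in 5.19% of all tested genes. Cxcl17, a mucosal chemokine, had 272 CPM in WT_1, 466, 826 and 481 CPM in p21Het, 296 to 485 CPM in p21mTert, and 734 and 540 CPM in p21mTertCD (-0.77, edgeR adjusted p = 0.395). Reg3g had 94.1 CPM in WT_1, 2.48, 123 and 0 CPM in p21Het, 1.94 to 141 CPM in p21mTert, and 912 and 3.77 CPM in p21mTertCD, so 1 library of 2 carried its high value.

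Some medians of these gene groups changed sign with the settings. Leukocyte markers, whose cells are rich in MHC class II, summed to 201 to 453 CPM in p21Het, 125 to 866 CPM in p21mTert and 133 and 295 CPM in p21mTertCD ciliated cells, and their part in the class II values was not tested. In the 276 mostly shallow cells with few club, alveolar and endothelial UMIs, a set with no further limit on leukocyte UMIs, the median of the class II genes for p21mTert minus p21mTertCD was 1.02 instead of -0.85. Without p21Het_2 the median of the airway defence genes against p21Het was 0.028 instead of -0.36.

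Among p53 targets, telomere genes and CDK inhibitors, edgeR called Cdkn1c alone. Of all genes, 51.4% were below 0 for p21mTert minus p21Het and 50.8% for p21mTert minus p21mTertCD. Of 19 tested p53 targets, 14 were below 0 for p21mTert minus p21Het (median -0.15) and 7 for p21mTert minus p21mTertCD (0.04). For p21mTertCD minus p21Het, 15 of 19 were below 0 (median -0.19), beside 50.3% of all genes. None was called by edgeR or DESeq2. At an unadjusted edgeR p under 0.05, 1 was higher and 3 lower for p21mTert minus p21Het (3.84% and 5.24% of all genes). For p21mTertCD minus p21Het, 1 was higher and 1 lower (2.46% and 2.26% of all genes). Gdf15, a p53-induced cytokine, had 9.92, 74.7 and 67.8 CPM in p21Het, 4.84 to 30.9 CPM in p21mTert, and 16.03 and 75.4 CPM in p21mTertCD, again highest in p21Het_2, p21Het_3 and p21mTertCD_2. Btg2, an antiproliferative p53 target and immediate early gene, had 559, 522 and 979 CPM in p21Het and 779 to 1248 CPM in p21mTert (0.55, edgeR adjusted p = 0.428). Of 10 tested telomerase and shelterin genes, 9 were above 0 against p21Het (median 0.11; 48.6% of all genes) and 8 against p21mTertCD (0.29; 49.2%). In each, 2 were higher at an unadjusted edgeR p under 0.05 (3.84% and 4.23% of all genes) and 0 were called by edgeR or DESeq2. Of 13 mitochondrially encoded genes, 11 were below 0 against p21Het (median -0.09).

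**Figure D5:**
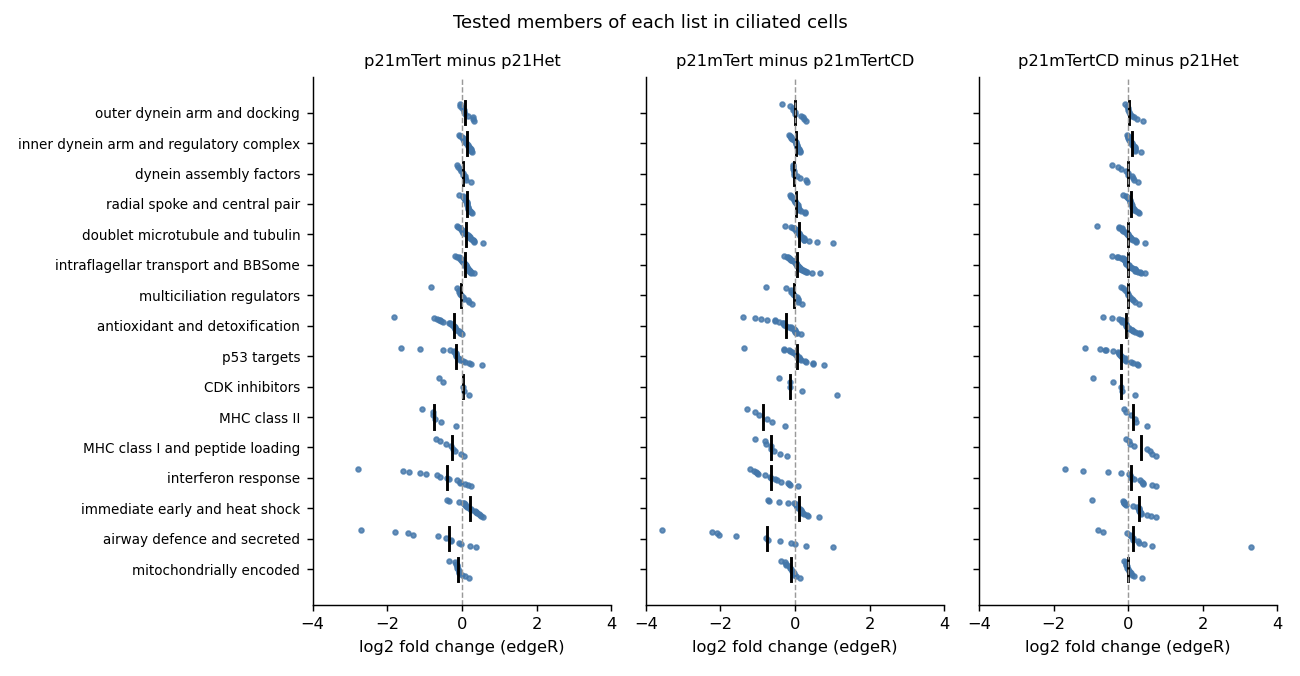
Log2 fold changes (edgeR) of the tested members of 16 gene lists in ciliated cells for the 3 comparisons; each point is 1 gene, black bars are list medians, and the dashed line marks 0. Most genes of the ciliary lists lie close to 0, mostly just above it for p21mTert minus p21Het, with Cfap45 apart in both p21mTertCD comparisons. The antigen-presentation, interferon and defence lists spread to the left of 0 in the 2 p21mTert comparisons.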

How the data were processed

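Single-cell RNA of whole mouse lung was measured in 11 droplet 3′ libraries. The deposited matrices hold raw UMI counts per gene and barcode for 31053 genes; per the submitters' processing notes, reads were mapped to mm10 with Cell Ranger, whose version is not given consistently and is left out. The limits on UMIs and mitochondrial share follow the labels' protocols. UMIs of ciliated cells were summed per library and compared by group over the 10 replicated libraries with the quasi-likelihood test of edgeR 4.0.16 (R 4.3.3), after its filter on low counts and TMM scaling; Benjamini-Hochberg adjustment ran over 10587 genes, and an adjusted p under 0.05 is called. WT has 1 library and entered no test. Shares, and Cdkn1a and Tert as log2(CPM + 1), went through exact permutation (2-sided), 6 tests of each kind adjusted together; the smallest p is 0.0179 for 5 against 3, 0.0476 for 5 against 2 and 0.1 for 2 against 3.

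Named genes were up to 12 per direction with the largest fold change among called genes of non-overlapping library values and at least 20 CPM in the higher group, with up to 3 of smallest p where fewer than 3 were called. Club-like cells held 10 or more UMIs of Cyp2f2 and Scgb3a2 and at most 1 of the rule genes; alveolar type 2-like and B cell-like cells held 5 or more UMIs of their markers. Doublets, marked with Scrublet in scanpy 1.11.5 at 0.8% per 1000 barcodes, were kept (112 ciliated cells, 7.35%) and left out as an alternative. Data were simulated with 200 changed genes (10587 genes each), all drawn from genes with a mean of 20 or more UMIs per library. For p21mTert against p21Het, p21mTert against p21mTertCD and p21mTertCD against p21Het, edgeR recovered 86%, 68% and 66% of 2-fold changes. It recovered 99%, 96% and 95% of 4-fold changes, and 9 of 194, 10 of 174 and 18 of 179 calls were false. Recovery was not examined in genes with fewer UMIs or in data with fewer changed genes. The adjustment asks for a smaller p where fewer genes are called. Far fewer were called in the real comparisons, so these rates can overstate the recovery there. Positions are from GENCODE M21 and promoters from RefSeq. The members and the lists were chosen with earlier results of these data known. Alternatives were DESeq2 1.42.0, no filter, a term for the deposit, the later deposit alone, a replicate block, other cell limits, 276 cells with under 10 club, 5 alveolar and 2 endothelial UMIs (8 to 43 per library; the 8 of p21mTert_1 and the 27 of WT_1 entered no fit) and each library left out. Values of some list members are not reported here.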

Additional observations from a re-analysis of the deposited data

Results flagged for a closer look

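Among 33 values examined in the 5 p21mTert libraries, 6 had 1 library far from the other 4. Chance alone gives this in about 1 in 20 values that are independent and normally distributed. These values share libraries and cells, and most of the 6 come from p21mTert_1, so the number is a description. In p21mTert_1 the alveolar type 2 markers summed to 4642 CPM in ciliated cells (next library 841 CPM), the leukocyte markers to 866 CPM (next 233 CPM), the basal, neuroendocrine and tuft markers to 3.43 CPM (next 0.717 CPM), and Ccl5 stood at 12.9 CPM (next 7.42 CPM). The 3.43 CPM lies near the 2.58 CPM that 3 counts give in p21mTert_1. Hdac7 was lowest in p21mTert_2 at 27.1 CPM (next 37.3 CPM), and Uhrf1bp1 highest in p21mTert_5 at 83.8 CPM (next 61.3 CPM).

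The limit of 30000 UMIs left out 320 barcodes that met the marker limits of ciliated cells, 14 to 55 per library. They enter no value of the report.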

How the results depend on the processing

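The numbers of called genes were 8 for p21mTert minus p21Het, 7 for p21mTert minus p21mTertCD and 1 for p21mTertCD minus p21Het. They were 217, 153 and 38 without a filter on low counts, 17, 18 and 5 with DESeq2, 2, 1 and 0 in the 276 mostly shallow cells with few club, alveolar and endothelial UMIs, and 15 and 4 for the first 2 in the later deposit; without doublets the third was 3. Leaving out 1 library gave 4 to 21 (21 without p21Het_1, 4 without p21mTert_2, _3, _4 or _5), 2 to 16 (16 without p21Het_2, 2 without p21mTert_3 or _5) and 1 to 2. The causes were not tested.

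Titles number the libraries of the later deposit only and share 2 and 3 between groups, and nothing in them ties a number to a batch or animal. Deviations of same-numbered libraries correlated at -0.239 to 0.0911; in groups of 2 libraries these mirror each other, so they do not settle a pairing. The replicate block, over 8 libraries, gave 12 called genes for p21mTert minus p21Het. In it p21mTertCD_1, p21mTert_4 and p21mTert_5 were each the only library of their number, so their own terms fitted them fully. The p21mTertCD group thus rested on p21mTertCD_2 alone. Little was left to estimate the spread, so a call lost with the block does not show that a difference is absent. Of the calls reported for p21mTert minus p21Het, those of Wdfy1 and Jchain passed with the block and the others did not. Among the others were Cd59a, Uhrf1bp1 and Lrmda (1.21, 1.27 and -2.19, edgeR adjusted p of 0.114 to 0.138). The calls that involve p21mTertCD were not kept. Among them were both of Slamf8, at log2 fold changes of -5.60 for p21mTert minus p21mTertCD and 4.98 for p21mTertCD minus p21Het. The block moved the medians of the interferon and class II genes for p21mTert minus p21mTertCD to 0.085 and 0.059.

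Leaving out 1 library, the ciliated share of airway cells ranged from -3.31 to 4.40 points for p21mTert minus p21Het and from -5.77 to 1.93 for p21mTertCD minus p21Het (1.93 in the later deposit). Cdkn1a ranged from -0.56 to -0.40 for p21mTert minus p21Het (-0.61 in the later deposit, which cannot pass 0.05) and from -0.19 to 0.073 against p21mTertCD; Tert ranged from 1.02 to 1.74, from -0.20 to 1.74, and from -0.48 to 1.46 for p21mTertCD minus p21Het. The edgeR value of Cdkn1a against p21mTertCD was 0.27 with the block, 0.58 in those 276 cells and -0.29 to 0.093 without 1 library. The rule genes chose the cells, so their values are a description: for p21mTertCD minus p21Het, Foxj1 was 0.055 as fitted, -0.00480 with a deposit term, -0.00601 in the later deposit and -0.14 in those 276 cells (-0.00800 to 0.11 without 1 library). Ccdc153 was 0.019, -0.00337 without doublets and -0.16 in those cells (-0.041 to 0.078 without 1 library). Tmem212 was -0.066, 0.058 in the later deposit, 0.012 with the block and 0.037 in those cells (-0.15 to 0.056 without 1 library). List medians, whose alternatives were added after seeing the data, changed sign in 5 of 220 values: 0.028 for airway defence against p21Het without p21Het_2 (range without 1 library -0.72 to 0.028), 0.056 for antioxidant genes against p21mTertCD without p21mTertCD_2 (-0.46 to 0.056), 1.02 for class II genes in those 276 cells, and both block values above. Depth limits Tert and the early regulators, which lie near the level of 3 counts.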
